A study of Mus musculus with 6 samples.

Results

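The class III receptor tyrosine kinases Kit, Flt3, Csf1r, Pdgfra and Pdgfrb and their ligands Kitl, Flt3l and Csf1 were followed in diseased mouse bone marrow. They were found by gene symbol, each was measured by 1 probe set with that symbol alone, and they make up 8 of the 19938 genes measured by microarray. HoxA9AA/Meis1 mice (3) carried a transplant of CD45.2+ LSK donor cells into which Meis1 and HoxA9AA-GFP had been introduced. HoxA9wt/Meis1 mice (3) carried the same kind of transplant with Meis1 and HoxA9wt-GFP. All 6 recipients were CD45.1+, were lethally irradiated beforehand and gave bone marrow cells when disease began, 1 array per animal. LSK cells are a haematopoietic stem and progenitor fraction that is itself sorted for Kit on the surface, so all donor cells of both groups started from Kit-bearing cells. The labels do not give the share of donor cells in the marrow, the age, sex or strain of the mice, or what the AA form changes.

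These receptors are membrane proteins with immunoglobulin-like domains outside the cell and a kinase split by an insert inside it. Binding of a ligand pairs the receptors, which then phosphorylate each other and start the Ras-MAPK, PI3-kinase and STAT pathways. In marrow, Kit marks stem and progenitor cells and mast cells, Flt3 marks multipotent, lymphoid and dendritic progenitors, and Csf1r marks monocytes and macrophages, while the PDGF receptors are best known from mesenchymal cells. FLT3 and KIT are recurrently mutated in human acute myeloid leukaemia.

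The arrays were not alike within the HoxA9AA/Meis1 group. Taken over all genes, as a description only, HoxA9AA replicates 1 and 3 correlated with the HoxA9wt arrays at r = 0.958 to 0.970. With each other they correlated at 0.963, inside that range. HoxA9AA replicate 2 correlated with the HoxA9wt arrays at 0.989 to 0.991, against 0.987 to 0.990 among the HoxA9wt arrays. All levels and differences below are log2 values, so that a difference of 1 is a 2-fold one. As a guide to background, the 95th percentile of 1027 olfactory receptor genes lay between 6.52 and 6.72 on the 6 arrays. The leukocyte gene Ptprc lay between 11.14 and 11.99, and Hoxa9 and Meis1 lay between 7.89 and 10.58, on all 6 arrays. Levels of different probe sets cannot be set against each other, so each gene is compared only with itself. The number of arrays limits the precision.

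Kit, Flt3, Csf1r and Pdgfrb differed most between single HoxA9AA mice. HoxA9AA replicates 1 and 3 had more Kit and Pdgfrb RNA and less Csf1r RNA than any HoxA9wt mouse, and replicate 1 alone had far less Flt3 RNA. HoxA9AA replicate 2 lay among the HoxA9wt mice for these 4 genes. No member passed the test between the groups. With limma and Benjamini-Hochberg adjustment over all genes, 0 of the 8 members and 0 of 19938 genes (0%) had an adjusted p under 0.05. At an unadjusted p under 0.05 there was 1 member, Kit, against 1344 genes (6.74%).

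**Figure D1:**
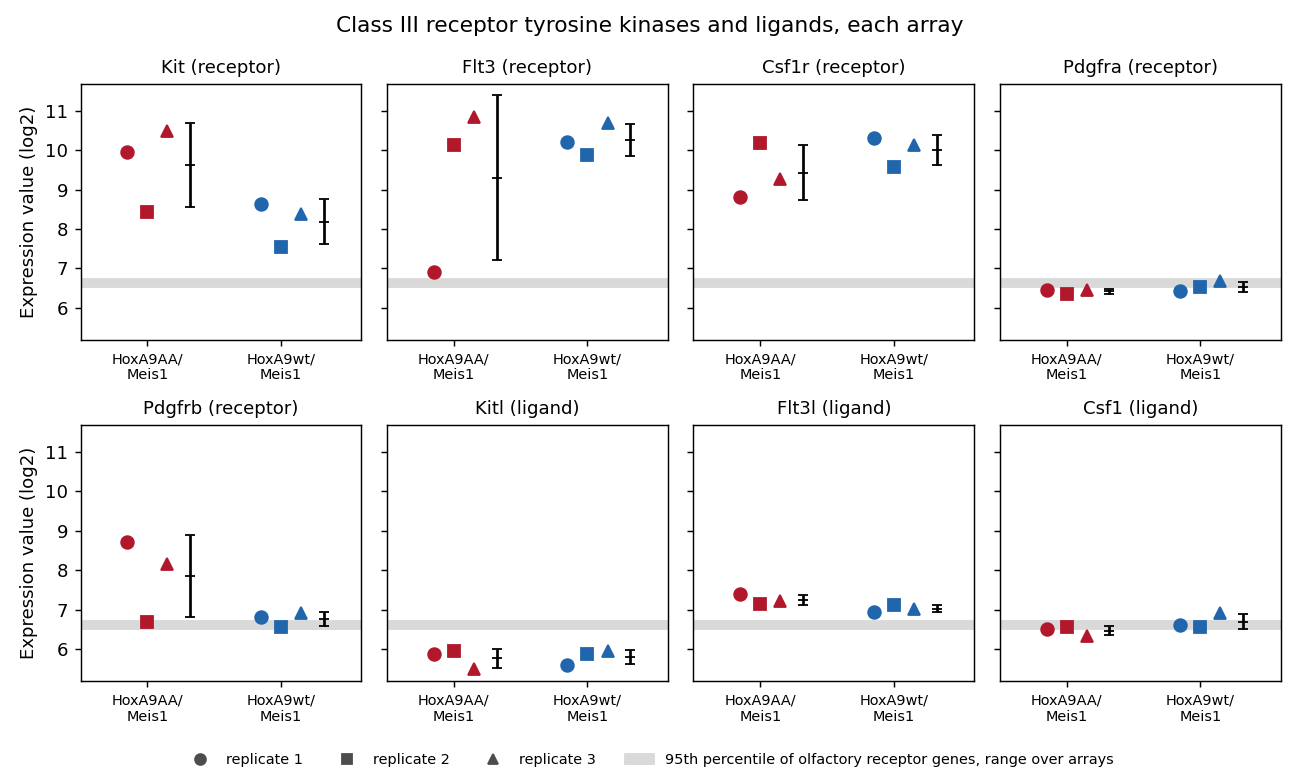
Expression values (log2, vertical axis) of the 8 genes on each array; symbols are single mice by replicate number, bars the group mean ± SD (n = 3), and the grey band the range over arrays of the olfactory receptor 95th percentile. Kit and Pdgfrb stand high in HoxA9AA replicates 1 and 3, Flt3 stands low in HoxA9AA replicate 1 at 6.92, and Pdgfra and Kitl lie at or below the band.

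Kit (probe set 10522530, chromosome 5) encodes the receptor for stem cell factor. It measured 9.96, 8.43 and 10.49 in HoxA9AA/Meis1 replicates 1, 2 and 3, against 8.63, 7.54 and 8.38 in HoxA9wt/Meis1 replicates 1, 2 and 3. Replicates 1 and 3 of the HoxA9AA group lay above every HoxA9wt mouse, and replicate 2 lay below the highest of them, so that the groups overlapped. The means were 9.63 ± 1.07 in HoxA9AA/Meis1 and 8.18 ± 0.57 in HoxA9wt/Meis1 (SD, n = 3 each). The difference of 1.44 ± 0.55 (SE), or 2.72-fold, had a 95% interval of 0.11 to 2.78 before adjustment and did not pass (limma, adjusted p = 0.731). Without HoxA9AA replicate 2 it was 2.04 (limma, adjusted p = 0.0961), and that mouse is the one most like the HoxA9wt mice. Leaving out any other single mouse gave 1.01 (without HoxA9AA replicate 3) to 1.67 (without HoxA9wt replicate 1). When the variance was not moderated across genes, the unadjusted p of the limma fit was 0.108, so the interval above depends on that step. In whole marrow, more Kit RNA per cell and more Kit-bearing cells cannot be told apart, and the same holds for every gene below.

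Flt3 (probe set 10535780, chromosome 5) encodes the receptor for Flt3 ligand. It measured 6.92, 10.13 and 10.85 in HoxA9AA/Meis1 replicates 1, 2 and 3, against 10.21, 9.87 and 10.69 in HoxA9wt/Meis1. HoxA9AA replicate 1 lay 3.34 below the HoxA9wt mean and close to the olfactory receptor percentile of its array (6.72), whereas replicate 3 was the highest of all 6 mice. The group difference was −0.96 ± 0.97 (SE, 95% interval −3.28 to 1.37; limma, adjusted p = 0.899), and without HoxA9AA replicate 1 its sign turned to 0.23. The SD among the HoxA9AA mice, 2.09, exceeded that of 99.9% of all genes in that group, and the SD among the HoxA9wt mice, 0.41, exceeded that of 96.8% of genes there. Of all genes, 70.7% had the larger SD in HoxA9AA/Meis1. Kit and Flt3 thus parted company in 1 mouse: both were above the HoxA9wt range in replicate 3, while in replicate 1 Kit was 1.78 above the HoxA9wt mean and Flt3 far below it.

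The stretches just before the start sites of Kit and Flt3 are shown because the introduced HoxA9 and Meis1 proteins bind DNA, and the windows were searched on either strand for short core motifs. The letters were TGACAG for MEIS proteins, TTTACGA for HOXA9, AGATAA for GATA factors, TGTGGT for RUNX factors and AGGAAG for ETS factors such as PU.1. Sequences are from RefSeq (GRCm38.p6), written 5′ to 3′ on the gene's strand and end at the base before the start site, with motif letters in capitals. Kit lies at chr5:75574737-75574986 on the plus strand (1 of 2 listed start sites) and Flt3 at chr5:147400490-147400739 on the minus strand.
Kit: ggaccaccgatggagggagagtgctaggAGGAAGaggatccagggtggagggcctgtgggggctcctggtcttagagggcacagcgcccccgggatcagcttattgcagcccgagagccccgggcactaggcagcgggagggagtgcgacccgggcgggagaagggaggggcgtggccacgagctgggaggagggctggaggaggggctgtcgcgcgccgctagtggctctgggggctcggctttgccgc
Flt3: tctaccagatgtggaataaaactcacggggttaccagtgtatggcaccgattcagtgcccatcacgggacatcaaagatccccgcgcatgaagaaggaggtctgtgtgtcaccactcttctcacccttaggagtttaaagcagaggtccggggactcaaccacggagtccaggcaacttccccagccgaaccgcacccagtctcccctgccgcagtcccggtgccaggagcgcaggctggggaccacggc
The Kit stretch held the ETS letters once, and the Flt3 stretch held none of the 5 motifs. Of 27025 genes with such a window, 29.2% held the ETS letters and 16.0% the MEIS letters in these 250 bases. Windows were found for 6 members, and none for Csf1r and Pdgfrb. None of the 6 held the HOXA9, GATA or RUNX letters, which 0.492%, 10.3% and 14.2% of all windows did. Such a match is only a description, and its absence says nothing of binding.

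When the 50 bases after the start were added, 3 of the 6 members, Pdgfra, Kitl and Flt3l, held the MEIS letters, against 19.3% of all windows. The 3 sites are shown because they begin within 21 bases of the start. None belongs to Kit or Flt3, which varied widely between mice. Csf1r and Pdgfrb, which also varied widely, had no window and could not be searched. They are at chr5:75152236-75152265 (plus strand), chr10:100015829-100015858 (plus strand) and chr7:45136406-45136435 (minus strand), with the MEIS letters or their complement in capitals.
Pdgfra: gacttcatttccTGACAGctatttacttta
Kitl: ttcatttgctgtCTGTCAccgggaccgaga
Flt3l: ttcggtctttggCTGTCAtccagctttggc
Of these 3 genes, Pdgfra and Kitl were at or below the background guide in nearly every mouse, as described below, and Flt3l was above it in all 6. Kit, Flt3 and Csf1 held no MEIS letters in the same window. Kit and Flt3 were above the guide on all 6 arrays and Csf1 on 3. A link between these letters and the level was not tested.

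Csf1r (probe set 10456071, chromosome 18) encodes the receptor for the macrophage growth factor CSF-1 and for IL-34. It measured 8.81, 10.19 and 9.28 in HoxA9AA/Meis1 replicates 1, 2 and 3, against 10.31, 9.58 and 10.13 in HoxA9wt/Meis1. HoxA9AA replicates 1 and 3 lay below every HoxA9wt mouse and replicate 2 inside their range. The difference was −0.58 ± 0.37 (SE, 95% interval −1.47 to 0.31; limma, adjusted p = 0.807), and it was −0.96 without HoxA9AA replicate 2 and −0.27 without HoxA9AA replicate 1. The shifts of Kit and Csf1r from the HoxA9wt mean had opposite signs in HoxA9AA replicates 1 and 3 and the same sign in the other 4 mice. The Kit shift minus the Csf1r shift was 2.97, 0.06 and 3.03 in HoxA9AA replicates 1, 2 and 3, and between −0.22 and 0.14 in the HoxA9wt mice.

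Pdgfrb (probe set 10456046, chromosome 18) encodes the PDGF receptor of pericytes and fibroblasts. It measured 8.71, 6.69 and 8.15 in HoxA9AA/Meis1 replicates 1, 2 and 3, against 6.82, 6.56 and 6.91 in HoxA9wt/Meis1. The HoxA9wt mice and HoxA9AA replicate 2 thus lay near the background guide, and HoxA9AA replicates 1 and 3 lay 1.95 and 1.39 above the HoxA9wt mean. The difference was 1.09 ± 0.49 (SE, 95% interval −0.08 to 2.25; limma, adjusted p = 0.731). Without HoxA9AA replicate 2 it was 1.67 (adjusted p = 0.0588), the smallest adjusted p of any member under any setting. Without HoxA9AA replicate 1 it was 0.66.

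Pdgfra (probe set 10522503, chromosome 5), the PDGF receptor of mesenchymal progenitors, varied little. It measured 6.45, 6.35 and 6.46 in HoxA9AA/Meis1, against 6.42, 6.52 and 6.67 in HoxA9wt/Meis1. It exceeded the background guide on 1 of 6 arrays, and its difference of −0.12 ± 0.10 (SE) did not pass (limma, adjusted p = 0.866). Pdgfra did not share the high Pdgfrb values of HoxA9AA replicates 1 and 3. The Pdgfrb shift minus the Pdgfra shift was 2.03 and 1.46 in those mice and 0.11 in replicate 2.

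**Figure D2:**
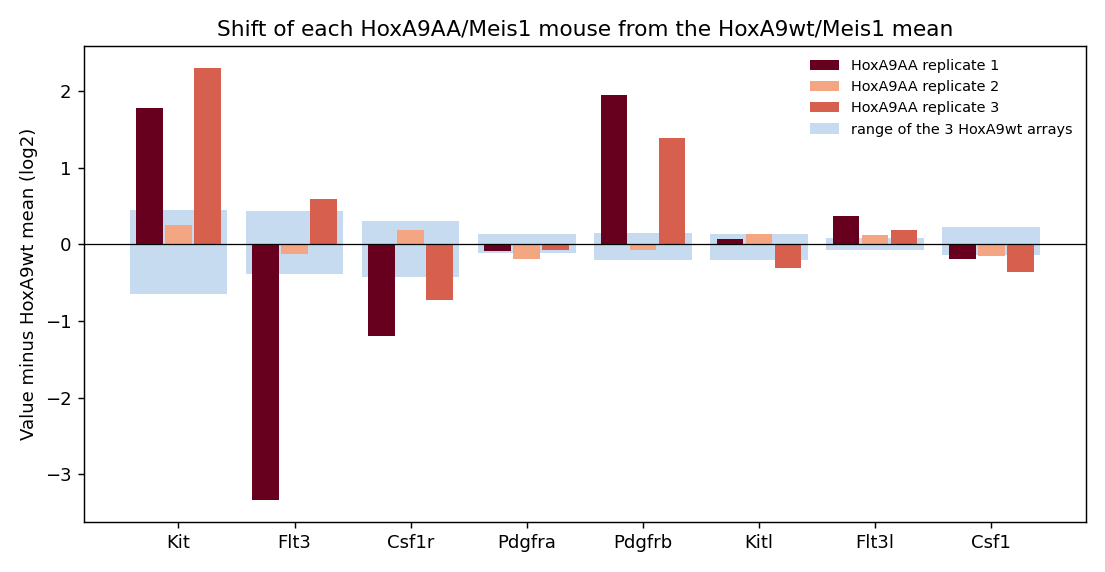
Value of each HoxA9AA/Meis1 mouse minus the HoxA9wt/Meis1 mean (log2, vertical axis) for the 8 genes; bars are single mice and pale boxes the range of the 3 HoxA9wt mice. Kit is up by 1.78 and 2.31 and Csf1r down to −1.20 and −0.73 in replicates 1 and 3, while the bars of replicate 2 reach 0.25 at most.

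The 3 ligands varied less between the HoxA9AA mice than Kit, Flt3, Csf1r and Pdgfrb, with SDs of 0.11 to 0.24, but more than Pdgfra (0.06). Kitl, stem cell factor, is made mainly by stromal and endothelial cells of the niche and acts on Kit. Its probe set (10366052, chromosome 10) measured 5.87, 5.94 and 5.49 in HoxA9AA/Meis1, against 5.60, 5.87 and 5.94 in HoxA9wt/Meis1, below the background guide on all 6 arrays. The difference was −0.04 ± 0.16 (SE; limma, adjusted p = 0.988).

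Flt3l, Flt3 ligand, is made by many marrow and lymphoid cells. Its probe set (10563116, chromosome 7) measured 7.39, 7.15 and 7.22 in HoxA9AA/Meis1, against 6.95, 7.11 and 7.02 in HoxA9wt/Meis1. All HoxA9AA mice lay above all HoxA9wt mice, by a gap of 0.04 at the nearest pair. The difference was 0.23 ± 0.10 (SE, 95% interval −0.01 to 0.47; limma, adjusted p = 0.731).

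Csf1, the macrophage growth factor that binds Csf1r, lay near background. Its probe set (10501164, chromosome 3) measured 6.50, 6.55 and 6.34 in HoxA9AA/Meis1, against 6.61, 6.56 and 6.92 in HoxA9wt/Meis1. All HoxA9AA mice lay below all HoxA9wt mice, by a gap of 0.01, which is the last decimal of the deposited values. The difference was −0.23 ± 0.13 (SE, 95% interval −0.54 to 0.07; limma, adjusted p = 0.765). Flt3l and Csf1 were the 2 of 8 members whose groups did not overlap, against 11.4% of all genes (6.6% higher and 4.8% lower in HoxA9AA/Meis1).

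Seen by animal, the 8 genes did not behave as 1 set. Kit, Flt3, Csf1r and Pdgfrb had HoxA9AA replicates 1 and 3 outside the HoxA9wt range and replicate 2 inside it. Pdgfra had replicate 2 alone outside, Kitl had replicate 3 alone outside, and Flt3l and Csf1 had every HoxA9AA mouse outside. In HoxA9AA replicate 2, 5 of the 8 lay inside the range of the HoxA9wt mice, against 52% of all genes. In replicate 1 it was 2 of 8 (33.4% of all genes) and in replicate 3 it was 1 of 8 (37.5% of all genes). The median size of the shift over the 8 genes was 0.78, 0.14 and 0.48 in replicates 1, 2 and 3, against 0.17, 0.10 and 0.15 over all genes. A group difference of at least 1 in size was seen for Kit and Pdgfrb, 2 of the 8, against 1.18% of all genes. The members were chosen with earlier results known, so these shares describe them and test nothing.

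None of the other ligands of the same receptors passed the test. Il34, the second ligand of Csf1r, and Pdgfa, Pdgfb, Pdgfc and Pdgfd, the ligands of the PDGF receptors, differed by −0.16 to 0.08, and 3 of these 5 genes were below the background guide on all 6 arrays. The median difference was 0.04, against 0.01 over all genes.

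Genes that carry or restrain the receptors' signal were described by count. Of 31 measured signalling genes, among them Ptpn11 (a phosphatase that transmits the signal) and Stat5a (a transcription factor it activates), 0 passed in either direction, and their median difference was 0.00. With an unadjusted p under 0.05, 3 of the 31 were higher and 2 lower, against 4.15% and 2.59% of all genes. Of 18 negative regulators, among them the ubiquitin ligase gene Cbl, the adaptor gene Sh2b3, the phosphatase gene Ptpn6 and Socs2, 0 passed, 7 had a higher and 11 a lower mean, and the median was −0.09. At an unadjusted p under 0.05 there were 1 higher and 3 lower, against 4.15% and 2.59% of all genes.

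Among the lower regulators, Socs6 and Sla are named after their values were seen. Socs6, whose protein binds activated KIT and FLT3 and promotes their breakdown in human cells, measured 7.54, 9.71 and 8.26 in HoxA9AA/Meis1, against 10.33, 9.77 and 9.93 in HoxA9wt/Meis1. The values of HoxA9AA replicates 1 and 3 stood well apart and that of replicate 2 was just below the lowest HoxA9wt value. The difference of −1.51 ± 0.52 (SE) did not pass (limma, adjusted p = 0.731). These values are from the gene's brightest probe set. The difference was −0.71 when its probe sets were averaged, so they did not all show a drop of that size. Sla, an adaptor that guides receptors to degradation, measured 10.32, 11.21 and 10.91 in HoxA9AA/Meis1, against 11.55, 11.44 and 11.54 in HoxA9wt/Meis1 (difference −0.70 ± 0.22 SE; limma, adjusted p = 0.731).

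The class III receptors were set among the other receptor tyrosine kinases by the size of the difference. Of 56 measured kinases, Kit, Pdgfrb, Flt3 and Csf1r ranked 3, 4, 5 and 7. None of these 4 passed (limma, adjusted p of 0.731 to 0.899), and without HoxA9AA replicate 1 the difference was 0.23 for Flt3 and −0.27 for Csf1r. The first 2 places were held by Mertk, a receptor for apoptotic cells (−2.56), and Epha7, an ephrin receptor (1.46), both named after their values were seen. The 51 other kinases had a median difference of 0.02, and 23 of them were below the background guide on all 6 arrays, where a difference cannot be large. Without HoxA9AA replicate 2, Mertk passed (−3.41; limma, adjusted p = 0.0320) and Kit and Pdgfrb did not.

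**Figure D3:**
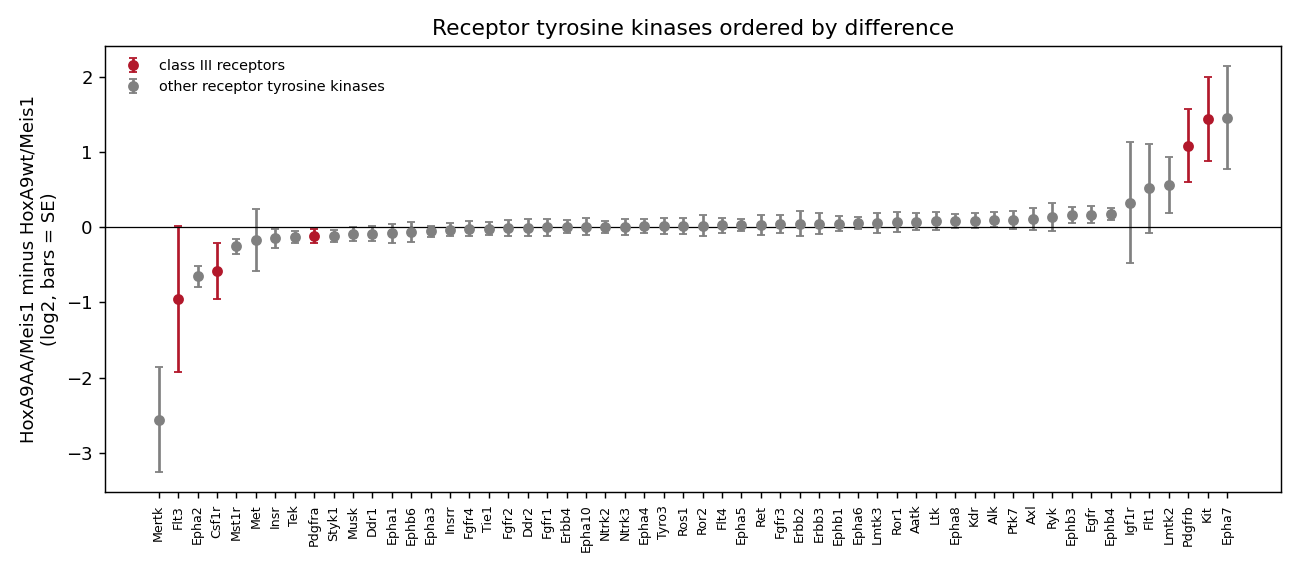
Difference HoxA9AA/Meis1 minus HoxA9wt/Meis1 (log2, vertical axis) of 56 receptor tyrosine kinase genes in order of the difference; points are estimates over 3 mice a group and bars the SE, with class III receptors in red. Kit at 1.44 and Pdgfrb at 1.09 stand near the upper end, Flt3 at −0.96 and Csf1r at −0.58 near the lower end, and Pdgfra at −0.12 among the rest.

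Gene order was compared because these receptors lie side by side in the genome. In the RefSeq gene table (GRCm38.p6), Pdgfra, Kit and Kdr, a receptor for vascular endothelial growth factor, follow each other on chromosome 5, and Pdgfrb and Csf1r on chromosome 18. On chromosome 5 the values of Kit varied and those of Pdgfra, given above, did so little. Kdr measured 5.57, 5.61 and 5.48 in HoxA9AA/Meis1, against 5.33, 5.51 and 5.56 in HoxA9wt/Meis1, below the background guide on all 6 arrays, where little variation could be seen. On chromosome 18, Pdgfrb was high and its neighbour Csf1r low in HoxA9AA replicates 1 and 3. Among the HoxA9wt mice, both were lowest in replicate 2, at 6.56 and 9.58. Hmgxb3, next to Csf1r on the other side, measured 7.93, 8.06 and 8.19 in HoxA9AA/Meis1, against 7.90, 7.86 and 8.01 in HoxA9wt/Meis1. The neighbours of Flt3, Urad and Pan3, differed by −0.01 and 0.05. On the other side of Pdgfrb, with 1 unmeasured gene between, the homeobox gene Cdx1 measured 7.28, 6.76 and 7.29 in HoxA9AA/Meis1, against 6.66, 6.96 and 7.02 in HoxA9wt/Meis1. Like Pdgfrb, it lay above every HoxA9wt mouse in HoxA9AA replicates 1 and 3 alone, with a smaller difference of 0.23 ± 0.18 (SE; limma, adjusted p = 0.848).

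Marker genes of the cell types that carry these receptors were read on each array as the mean shift of a list's genes from the HoxA9wt mean. For Kit, the 10 mast cell and basophil genes averaged 6.03 to 7.02 in HoxA9AA/Meis1 and 6.09 to 6.86 in HoxA9wt/Meis1. Their scores were 0.02, −0.33 and 0.66 in HoxA9AA replicates 1, 2 and 3, and 0.51, −0.27 and −0.24 in the HoxA9wt mice, and 5 of the 10, among them Fcer1a and Mcpt4, were below the background guide on all arrays. The mast cell protease gene Cpa3 measured 7.83, 6.45 and 11.08 in HoxA9AA/Meis1, against 10.47, 5.69 and 7.35 in HoxA9wt/Meis1. It was highest in HoxA9AA replicate 3 and HoxA9wt replicate 1, which also had the most Kit of their groups. Hdc, the histamine-forming enzyme, named after its values were seen, measured 7.53, 6.84 and 8.67 in HoxA9AA/Meis1, against 7.20, 6.94 and 6.72 in HoxA9wt/Meis1. It was highest in HoxA9AA replicates 1 and 3, as Kit was. Other genes of the list, also named after their values were seen, were not. Mcpt8 and Ms4a2 were highest in HoxA9wt replicate 1, at 9.89 and 7.28. In HoxA9AA replicates 1 and 3, Mcpt8 measured 9.27 and 9.36, and Ms4a2 measured 6.17 and 7.10. The 8 stem and progenitor genes averaged 7.42 to 7.93 in HoxA9AA/Meis1 and 7.18 to 7.56 in HoxA9wt/Meis1. They scored 0.56, 0.06 and 0.46 in HoxA9AA replicates 1, 2 and 3, while the HoxA9wt mice scored −0.19 to 0.20, so their score was highest in the same HoxA9AA mice in which Kit was highest. Procr, Slamf1 and Mecom of this list were below the background guide on all arrays. The largest differences in it were those of Cd34 (1.08) and Erg (0.94), while Cd48 differed by 0.09. Cd34 measured 10.40 and 10.33 in HoxA9AA replicates 1 and 3, and 10.14 in HoxA9wt replicate 1. The part of either cell type in the Kit values was not tested.

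For Csf1r, the 10 monocyte and macrophage genes averaged 8.70 to 9.17 in HoxA9AA/Meis1 and 8.87 to 9.39 in HoxA9wt/Meis1. They scored −0.46, 0.01 and −0.32 in HoxA9AA replicates 1, 2 and 3, while the HoxA9wt mice scored −0.30 to 0.23, and 8 of the 10 had a lower mean. Vcam1, on the same list and named after its values were seen, ran the other way, with 11.35, 9.12 and 9.25 in HoxA9AA/Meis1, against 8.85, 8.48 and 8.56 in HoxA9wt/Meis1. HoxA9wt replicate 2, at −0.30, was also the HoxA9wt mouse with the least Csf1r. The part of monocytes in the Csf1r values was not tested. For Flt3, the 9 dendritic cell genes other than Flt3 scored 0.02 to 0.06 in HoxA9AA/Meis1 and −0.11 to 0.06 in HoxA9wt/Meis1, with Zbtb46, Xcr1, Clec9a and Ccr9 below the background guide on all arrays. Their score in HoxA9AA replicate 1, where Flt3 was low, was 0.02. The 9 lymphoid genes scored −0.14 to 0.13 in HoxA9AA/Meis1 and −0.13 to 0.12 in HoxA9wt/Meis1.

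For Pdgfrb, the mean score of markers of the cells best known to carry it shifted little. The 12 stromal and pericyte genes averaged 6.49 to 6.70 in HoxA9AA/Meis1 and 6.51 to 6.65 in HoxA9wt/Meis1, with scores of 0.04, 0.11 and −0.10 in HoxA9AA replicates 1, 2 and 3. Lepr, Lum, Adipoq and the pericyte gene Rgs5 were below the background guide on all arrays, and 6 of the 12 were above it on all 6. Closeness to background limits what this score could show. The part of stromal cells in the Pdgfrb values was not tested. The 8 endothelial genes scored 0.07 to 0.20 in HoxA9AA/Meis1 and −0.04 to 0.05 in HoxA9wt/Meis1, and Emcn, Tek, Esam and Robo4 were below the background guide on all arrays. Pecam1, which many leukocytes also express, differed by 1.19, and the other genes of that list by −0.13 to 0.09. It measured 10.88, 9.87 and 10.94 in HoxA9AA/Meis1, against 9.84, 8.96 and 9.32 in HoxA9wt/Meis1.

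**Figure D4:**
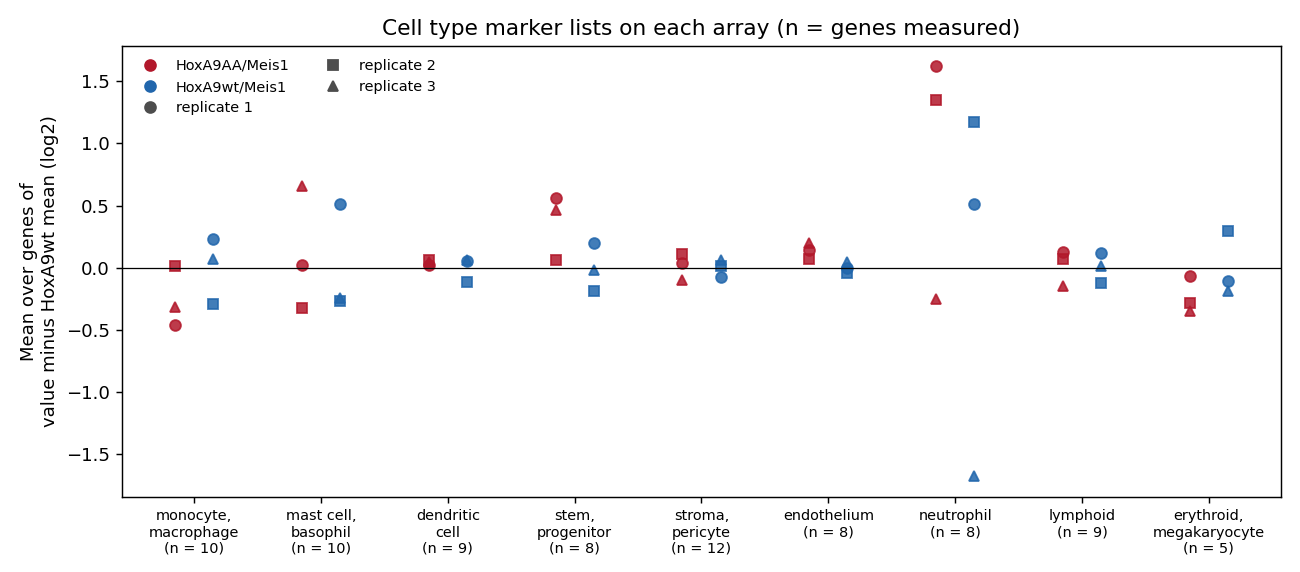
Scores of 9 cell type marker lists on each array (vertical axis: mean shift from the HoxA9wt mean over the measured genes, log2); symbols are single mice by replicate number. The stem and progenitor list is highest in HoxA9AA replicates 1 and 3, at 0.56 and 0.46, the monocyte and macrophage list is lowest there, at −0.46 and −0.32, and the stromal list lies within 0.11 of zero on every array.

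The genes whose pattern over the 6 arrays was most like that of a receptor were picked by Pearson's r, among 2336 genes with a range of at least 1. These were the highest values of a search and carry no test. For Kit they were Ergic1, a protein of transport between endoplasmic reticulum and Golgi (r = 0.997), Irf1, a transcription factor of the interferon response (0.996), and Bace1, the beta-secretase (0.995). Ergic1 measured 10.81, 10.28 and 11.00 in HoxA9AA/Meis1, against 10.39, 9.91 and 10.25 in HoxA9wt/Meis1, with the same order of mice as Kit. For Flt3 they were Aatf (r = 0.996), Pno1 (0.996) and Kat14 (0.994), each lowest in HoxA9AA replicate 1. For Csf1r they were Plekhm3 (r = 0.995), the sodium-calcium exchanger gene Slc8a1 (0.991) and the protein kinase C gene Prkch (0.988). An r of at least 0.95 was reached by 31 of the 2336 genes with Kit (1.33%), 143 with Flt3 (6.12%), 37 with Csf1r (1.58%) and 60 with Pdgfrb (2.57%). The Flt3 pattern is mostly the low value of HoxA9AA replicate 1, so a gene low in that mouse alone can reach a high r with it.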

How the data were processed

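Bone marrow RNA of 6 mice was measured on 6 Affymetrix whole-transcript arrays. The authors deposited log2 values made with oligo and RMA (background correction, quantile normalization, probe set summary), per the submitters' processing notes; no versions are stated there. Precision comes from the spread between mice. Of 35556 probe sets, 21789 had exactly 1 symbol, 1621 had several and 12146 were not listed. The brightest probe set stood for each gene, leaving 19938 genes. No 2 arrays shared more than 2.83% of values.

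Differences were tested with limma 3.58.1 (R 4.3.3) (two-sided, no block, Benjamini-Hochberg over all genes, threshold 0.05); intervals are unadjusted. The fit was tested on simulated data. It called 0 genes when no change was put in, and recovered 71% of changes of 1 and 90% of changes of 2. The simulation gave both groups the same spread, whereas 70.7% of genes here had the larger SD in HoxA9AA/Meis1. It therefore does not show how the fit behaves with unequal spread. Alternatives were a replicate block, leaving out each array, filters, other probe set rules, normalizations and variance models. Named genes were the members, their other ligands and neighbours, fixed regulators, marker genes, and 3 most similar genes per receptor; probe sets with several symbols were not used. The members and lists were chosen with earlier results of these data known. Figures were drawn with matplotlib 3.10.9.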

Additional observations from a re-analysis of the deposited data

How the results depend on the processing

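Of 125 values of the 8 members under the alternatives, 121 kept their direction and their side of the threshold, and 0 passed (smallest adjusted p 0.0588, Pdgfrb without HoxA9AA replicate 2). Each member had 1 probe set, so the filters and probe set rules could not change its difference. Neither could the replicate block or the variance models without array weights. In those settings only the p could move. The sign of Flt3 turned to 0.23 without HoxA9AA replicate 1. That of Kitl, below background, turned to 0.10 without HoxA9AA replicate 3, to 0.03 without HoxA9wt replicate 3 and to 0.026 with quantile normalization. Leaving out 1 array moved Kit between 1.01 and 2.04, Flt3 between −1.73 and 0.23, Csf1r between −0.96 and −0.27, Pdgfrb between 0.66 and 1.67, Pdgfra between −0.18 and −0.05, Kitl between −0.14 and 0.10, Flt3l between 0.16 and 0.28, and Csf1 between −0.30 and −0.12. The count of genes called was 0 with all 6 arrays and 0 to 48 without 1 array: 48 without HoxA9AA replicate 2, 1 without HoxA9wt replicate 3 and 0 otherwise. Genes with an unadjusted p under 0.05 numbered 2802 and 608 in those fits, against 1344; the cause was not tested. With the replicate block 0 genes were called, and no member passed. No label says that a replicate number pairs the mice. The correlation of deviations was −0.21, −0.10 and −0.01 for equal numbers and −0.16 to 0.24 for unequal ones, and so few arrays cannot decide it. The filter at the median of all probe sets (6.81) left no value for Pdgfra, Kitl and Csf1. All 28 list medians moved by less than the spread between mice. For low members, closeness to background limits what could be seen.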

Other observations

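Some other receptor kinases, picked after their values were seen, set single HoxA9AA mice apart. Igf1r, the receptor for insulin-like growth factor 1, measured 9.93, 8.09 and 6.38 in HoxA9AA/Meis1 replicates 1, 2 and 3, against 7.89, 7.83 and 7.69 in HoxA9wt/Meis1, so that replicates 1 and 3 lay on opposite sides of the HoxA9wt mice. Flt1, a receptor for vascular endothelial growth factor, measured 9.25, 7.21 and 6.93 in HoxA9AA/Meis1, against 7.17, 7.56 and 7.11 in HoxA9wt/Meis1. The neutrophil list scored 1.62, 1.35 and −0.25 in HoxA9AA/Meis1, against 0.51, 1.17 and −1.68 in HoxA9wt/Meis1, a wider spread than in any other marker list, and the erythroid and megakaryocyte list scored −0.35 to −0.07 in HoxA9AA/Meis1 and −0.19 to 0.29 in HoxA9wt/Meis1.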
